A study of Mus musculus with 12 samples.

Results

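The metabotropic glutamate receptors *Grm2*, *Grm3*, *Grm4*, *Grm5*, *Grm7* and *Grm8* were examined in the hippocampus of *Dek* cKO and WT mice, as 6 of the 26409 genes listed for these libraries. They were chosen by name, and each was found by its Ensembl identifier in GENCODE M21. All 6 reached a mean of 0.1 TPM and were among the 18197 genes tested. TPM, a scaled count of transcripts, is a level corrected for transcript length, so it allows levels of different receptors to be compared.

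Metabotropic glutamate receptors are G protein-coupled receptors that answer glutamate over a slower course than the ion channels it also opens. *Grm5* encodes the group I receptor mGlu5, which couples through Gq to phospholipase C, sits mainly on postsynaptic membranes and is known for its part in hippocampal plasticity. *Grm2* and *Grm3* form group II, and *Grm4*, *Grm7* and *Grm8* belong to group III. Both of these groups couple to Gi/o, which lowers cyclic AMP, and they are best known for limiting transmitter release at presynaptic terminals. mGlu3 is also made by astrocytes.

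Microdissected hippocampus gave 12 libraries of bulk poly-A RNA, with 3 each from female WT, male WT, female *Dek* cKO and male *Dek* cKO mice. The cKO line carries a germline deletion of *Dek* exons 3 to 4, made by crossing *Dek* fl/fl mice with CMV-Cre mice on a C57Bl/6 background and then breeding the Cre out, so the deletion of *Dek*, which encodes a chromatin-binding protein, is constitutive and not limited to neurons. Mice were 6 to 12 months old, and tissue was taken after behavioral testing. The comparison asks whether receptor mRNA differs between genotypes, and whether that difference depends on sex.

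*Dek* itself was at 44.2 to 51.9 TPM in the 6 WT libraries and at 5.55 to 9.25 TPM in the 6 cKO libraries, which did not overlap. Y-linked genes went against the label in 2 libraries. *Eif2s3y* was at 72.7 TPM in the library labelled female *Dek* cKO 3 and at 0.111 TPM in the library labelled male *Dek* cKO 1, against 69.0 to 92.0 TPM in the other male libraries. Results of *Grm5* and *Grm3* within a sex are therefore given with and without them. The 3 female WT libraries have names that begin with C57 while the other 9 begin with CMV, so in females the name and the genotype cannot be told apart. Among CMV-named libraries all WT are male, so every comparison limited to them is unbalanced for sex. Markers of hippocampal neurons and glia were present in every library, and choroid plexus markers ranged from 46.3 to 4445 TPM in sum. The astrocyte sum was 2049 TPM in male *Dek* cKO 3 and 1079 to 1427 TPM elsewhere. In bulk tissue, fewer cells of a type and less RNA per cell cannot be told apart.

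The receptors descend from related genes, so it matters whether reads of one can be taken for another. The 60 coding bases most alike across the 6 genes are shown for 5 of them because sharing between receptors would be likeliest there. They lie within a single coding exon in each of the 5 genes and are written 5′ to 3′ along the coding strand, from the GENCODE M21 transcripts (GRCm38). Capitals mark bases that differ from *Grm5*.
Grm5: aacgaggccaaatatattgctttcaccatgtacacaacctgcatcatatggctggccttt
Grm3: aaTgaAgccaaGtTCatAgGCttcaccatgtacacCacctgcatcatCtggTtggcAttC
Grm4: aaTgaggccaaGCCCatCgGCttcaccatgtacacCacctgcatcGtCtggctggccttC
Grm7: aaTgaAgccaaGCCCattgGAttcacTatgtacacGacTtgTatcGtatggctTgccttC
Grm8: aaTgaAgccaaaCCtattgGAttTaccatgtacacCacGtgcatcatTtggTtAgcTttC

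In this stretch the other receptors shown differed from *Grm5* at 12 to 15 of the 60 positions. Other pairs were closer, and *Grm3* and *Grm4* each differed from their nearest receptor at 7 positions. The longest run of bases identical in all 6 was 8. Between pairs, the longest identical runs anywhere in the coding sequences were 27 bases for *Grm3* with *Grm4* and 26 for *Grm4* with *Grm7*. The windows are at chr7:88074805-88074864 (plus strand, exon 7) for *Grm5*, chr5:9511494-9511553 (minus strand, exon 4) for *Grm3*, chr17:27434572-27434631 (minus strand, exon 9) for *Grm4*, chr6:111358982-111359041 (plus strand, exon 8) for *Grm7* and chr6:27363124-27363183 (minus strand, exon 8) for *Grm8*.

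Over whole coding sequences, the closest pair was *Grm7* and *Grm8*, at 69.2% identical aligned bases, followed by *Grm4* with *Grm8* at 68.9% and *Grm4* with *Grm7* at 68.1%. *Grm2* and *Grm3* shared 66.0%. Pairs from different groups shared 51.1% to 56.2%. No word of 31 bases was common to the transcripts of any pair of the 6 receptors. Of *Grm2* words, 8.97% also occur on the opposite strand, nearly all in the overlapping gene *Gm28111*, and for *Grm7* the share was 1.69%. Whether the quantification used strand is not stated, so those reads of *Grm2* and *Gm28111* may not have been told apart. For the other receptors at most 0.66% of words occur in any other gene on either strand.

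*Grm5* mRNA was the most abundant of the 6 receptors and *Grm8* the least. The mean over 12 libraries was 77.5 TPM ± 6.88 (SD, n = 12) for *Grm5*, a level above 90.2% of tested genes. *Grm7* followed at 57.9 TPM ± 5.75, *Grm3* at 28.5 TPM ± 3.21 and *Grm2* at 16.1 TPM ± 2.80. *Grm4* and *Grm8* were lowest, at 5.45 TPM ± 1.37 and 4.25 TPM ± 0.929.

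Not every step in this order exceeded the spread. *Grm5* was above *Grm7* in 11 of 12 libraries, with a median ratio of 1.39 within a library, and in the remaining library, male *Dek* cKO 3, they stood at 65.7 and 65.9 TPM. *Grm4* was above *Grm8* in 10 of 12 libraries, and the 2 exceptions were male WT 2 and male *Dek* cKO 2. The ranges of *Grm5* and *Grm7* overlapped, as did those of *Grm4* and *Grm8*. The other steps held in all 12 libraries without overlap, with median ratios of 2.09 for *Grm7* over *Grm3*, 1.80 for *Grm3* over *Grm2* and 2.85 for *Grm2* over *Grm4*.

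**Figure D1:**
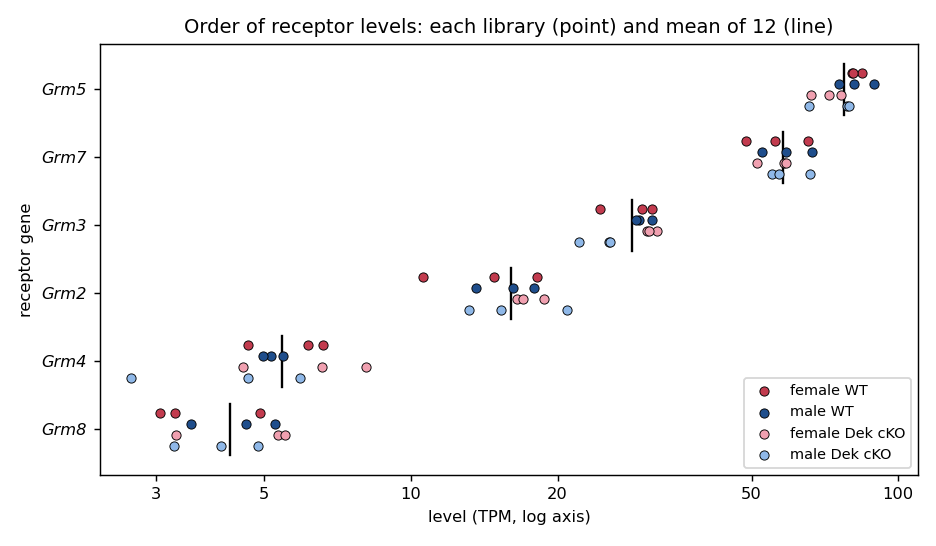
Level of each receptor in TPM on a log axis, with 1 point per library coloured by group and a line at the mean of 12 libraries. *Grm5* and *Grm7* lie at the top with overlapping ranges, *Grm3* and *Grm2* between, and *Grm4* and *Grm8* overlap at the bottom.

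Taking the 6 receptors as a whole, their summed level averaged 189.6 TPM over the 12 libraries. *Grm5* held 40.9% of that sum, group III 35.6% and group II 23.5%. Most of the group III sum was *Grm7*, at 30.5% of the total, while *Grm4* and *Grm8* gave 2.87% and 2.24%. In WT the sum ranged from 179.5 to 213.4 TPM and in *Dek* cKO from 182.5 to 191.6 TPM. The cKO range therefore lay inside the WT range.

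None of the 6 receptors passed the test between genotypes over both sexes. Passing required a limma adjusted p below 0.05 and more than a 1.2-fold difference, which 27 of 18197 genes (0.148%) met and 0 of 6 receptors met. At an unadjusted p under 0.05 there was 1 receptor, *Grm5*, against 6.64% of all tested genes. Log2 fold changes of the 6, cKO against WT, ranged from -0.17 to 0.16, with 4 of 6 below 0 and a median of -0.04 beside 0.02 over all tested genes.

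**Figure D2:**
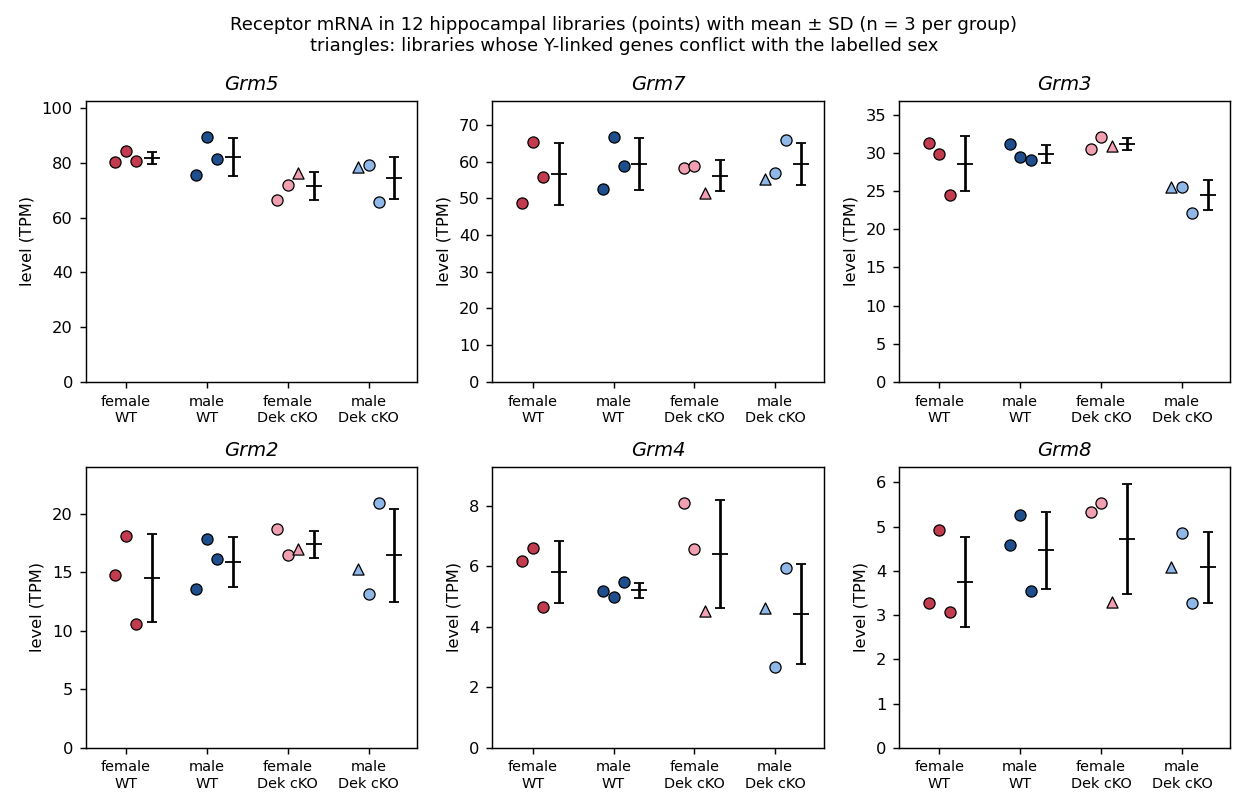
TPM of each receptor in the 12 libraries by group, with the mean and SD of each group (n = 3) as a bar beside the points, and triangles for the libraries whose Y-linked genes go against the label. The 3 female *Dek* cKO points of *Grm5* lie below the 3 female WT points, and the 3 male *Dek* cKO points of *Grm3* lie below the 3 male WT points.

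*Grm5* (chromosome 7, 87584168 to 88134907, plus strand, GRCm38) had the smallest p of the receptors. Its level in female WT was 80.3, 84.3 and 80.8 TPM, and in male WT 75.5, 89.3 and 81.3 TPM. In female *Dek* cKO it was 66.4, 72.0 and 76.3 TPM, and in male *Dek* cKO 78.4, 79.2 and 65.7 TPM. All 6 cKO values were below the WT median of 81.1 TPM and 3 of them were below the lowest WT value, but the genotypes overlapped, with the cKO library higher in 3 of 36 pairs.

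The *Grm5* means were 81.9 TPM ± 4.61 in WT and 73.0 TPM ± 5.94 in cKO (SD, n = 6 each). Its log2 fold change was -0.17 (SE 0.06, 95% interval -0.29 to -0.04), with adjusted p = 0.568 in limma. It was not called, and at a fold of 0.89 it also fell short of the 1.2-fold difference that a call required. By p it was at rank 382 of 18197 genes. Without both libraries of conflicting sex the log2 fold change was -0.21 (adjusted p = 0.457). Among libraries whose names begin with CMV it was -0.17 (adjusted p = 0.988), but there every WT library is male while cKO is of both sexes.

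Within females all 3 *Dek* cKO values of *Grm5* were below all 3 WT values, a separation in that direction that 4.59% of tested genes showed. There the log2 fold change was -0.19 (SE 0.09, 95% interval -0.39 to -0.004, adjusted p = 0.852). In males, the log2 fold change was -0.14 (SE 0.09, adjusted p = 0.892), and 2 of 9 pairs had the cKO library higher. The male value was -0.05 without male *Dek* cKO 3 and -0.08 without male WT 2, so it rested largely on single libraries. Without both libraries of conflicting sex it was -0.24 (adjusted p = 0.508) in females and -0.18 (adjusted p = 0.584) in males. The difference between the sexes in this change was 0.05 on the log2 scale, with a 95% interval from -0.22 to 0.32. The lowest 3 cKO values, from female 1, female 2 and male 3, included the library with the high astrocyte sum.

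Summed interneuron markers were at 854.6 to 873.4 TPM in female *Dek* cKO and 789.9 to 815.0 TPM in female WT, and thalamus and habenula markers at 75.9 to 79.2 against 58.0 to 72.7 TPM. Neither pair of ranges overlapped, as for *Grm5*, and their part in the *Grm5* values was not tested. CA1 pyramidal markers ranged from 256.5 to 325.9 TPM in cKO and from 293.9 to 348.7 TPM in WT. Astrocyte markers without male *Dek* cKO 3 gave overlapping ranges in the genotypes.

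*Grm3* (chromosome 5, 9485541 to 9725170, minus strand), the more abundant group II receptor, had log2 fold changes of opposite sign in the sexes. In male WT it was at 31.2, 29.4 and 29.0 TPM, and in male *Dek* cKO at 25.5, 25.6 and 22.2 TPM. Female WT had 31.3, 29.8 and 24.5 TPM, and female *Dek* cKO had 30.5, 32.0 and 30.8 TPM. Grouped by the labelled sex, the male genotypes did not overlap, while in females the cKO values lay close together inside or just above the WT range.

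In males the log2 fold change of *Grm3* was -0.29 (SE 0.09, 95% interval -0.50 to -0.08), with adjusted p = 0.880 in limma. In females it was 0.13 (SE 0.09, adjusted p = 0.907). The male effect minus the female effect was -0.42 (SE 0.13, 95% interval -0.72 to -0.13), with adjusted p = 0.966. None of these was called. Over both sexes the log2 fold change was -0.08 (SE 0.09, adjusted p = 0.940), between means of 29.2 TPM ± 2.50 in WT and 27.8 TPM ± 3.90 in cKO (SD, n = 6 each).

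Both libraries of conflicting sex sat with the group of their label in *Grm3*. The library labelled male *Dek* cKO 1, low in Y-linked genes, was at 25.5 TPM, and the library labelled female *Dek* cKO 3 was at 30.8 TPM. Grouped by Y-linked genes instead, male *Dek* cKO would be at 30.8, 25.6 and 22.2 TPM. Male WT was at 29.0 to 31.2 TPM, so the male genotypes would then overlap. Female *Dek* cKO would be at 30.5, 32.0 and 25.5 TPM. The separation in males therefore depends on the labels, and no test was run on this regrouping. Without both libraries of conflicting sex the limma log2 fold change was -0.33 in males (adjusted p = 0.533) and 0.14 in females (adjusted p = 0.808). The male minus female difference was then -0.46 (adjusted p = 0.458). Summed neuronal markers were at 3102 to 3185 TPM in male *Dek* cKO and 3329 to 3459 TPM in male WT, and at 3350 to 3427 TPM in female *Dek* cKO and 3127 to 3319 TPM in female WT. As groups they differed between genotypes in the direction of the *Grm3* means in each sex, although the female *Grm3* ranges overlapped. Single libraries did not always follow. Female WT 3 and male *Dek* cKO 3, lowest of their groups in *Grm3*, had the highest neuronal sums of those groups, at 3319 and 3185 TPM. Endothelial markers were also lower in male *Dek* cKO, at 108.0 to 117.6 TPM against 118.3 to 128.2 TPM in male WT. The part of either list in the *Grm3* values was not tested. Male *Dek* cKO 3, which had the highest astrocyte sum, had the lowest *Grm3*. The other male cKO libraries, with astrocyte sums of 1169 and 1215 TPM, were also below every male WT value. The part of astrocytes in these values was not tested either.

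Within a sex no receptor was called. In females limma called 0 of 6 receptors, beside 0.0165% of tested genes, and 1, *Grm5*, had an unadjusted p under 0.05, beside 5.79%. In males it called 0 of 6, beside 0.0165%, and 1, *Grm3*, had an unadjusted p under 0.05, beside 5.45%. A separation with all 3 male cKO values below all 3 male WT values was seen in 1 receptor, *Grm3*, and in 3.84% of tested genes. Without both libraries of conflicting sex limma called 6 genes in each sex instead of 3, and still 0 of 6 receptors. For the difference between sexes limma called 0 of 6 receptors and 0 genes (0%), and 1 receptor had an unadjusted p under 0.05, beside 4.23% of genes. Between WT sexes it called 0 of 6 receptors and 0 genes (0%), and 0 receptors had an unadjusted p under 0.05, beside 3.63% of genes.

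**Figure D3:**
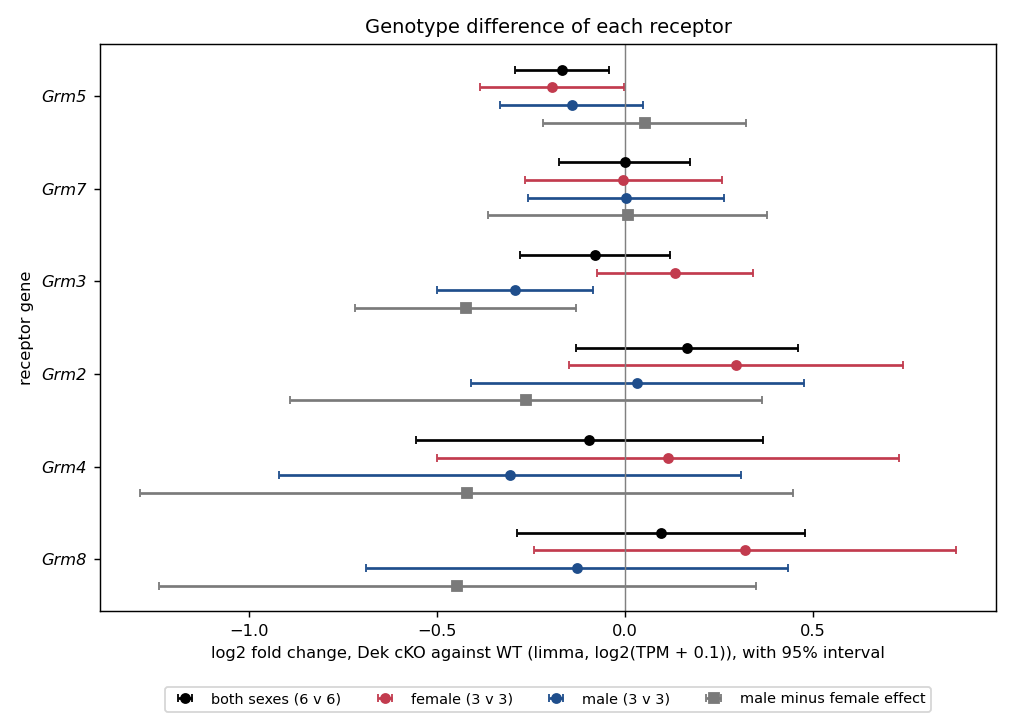
Log2 fold change of each receptor with its 95% interval from limma for both sexes, females, males and the male minus female difference. The intervals of *Grm5* over both sexes and in females, and of *Grm3* in males and for the difference, leave out 0 before adjustment. *Grm4* and *Grm8* have the widest intervals.

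*Grm2* (chromosome 9, 106643095 to 106656082, minus strand), the other group II receptor, was at 14.8, 18.1 and 10.6 TPM in female WT and 13.6, 17.9 and 16.2 TPM in male WT. It was at 18.7, 16.5 and 17.0 TPM in female *Dek* cKO and 15.3, 13.2 and 20.9 TPM in male *Dek* cKO. The lowest value of all came from female WT 3 and the highest from male *Dek* cKO 3. Over both sexes the log2 fold change was 0.16 (95% interval -0.13 to 0.46, adjusted p = 0.908), and the genotypes overlapped with cKO higher in 24 of 36 pairs. It was 0.07 without female WT 3, 0.10 without male *Dek* cKO 3 and 0.09 among CMV-named libraries.

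*Grm7* (chromosome 6, 110645581 to 111567230, plus strand), the most abundant group III receptor, was nearly level between the genotypes. Its means were 58.0 TPM ± 7.05 in WT and 57.8 TPM ± 4.80 in cKO (SD, n = 6 each), with a range of 48.7 to 66.6 TPM and a median of 57.4 TPM in WT, and a range of 51.4 to 65.9 TPM and a median of 57.6 TPM in cKO. Every cKO value lay within the WT range. The log2 fold change had a 95% interval from -0.17 to 0.17, the narrowest after *Grm5*.

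*Grm4* (chromosome 17, 27422387 to 27521403, minus strand) varied most between cKO libraries. It was at 6.16, 6.61 and 4.64 TPM in female WT, 5.17, 4.97 and 5.46 TPM in male WT, 8.08, 6.58 and 4.53 TPM in female *Dek* cKO, and 4.63, 2.67 and 5.94 TPM in male *Dek* cKO. The coefficient of variation was 13.6% in WT and 34.8% in cKO, a pair of values given as a description. Over both sexes its log2 fold change was -0.09 (95% interval -0.56 to 0.37, adjusted p = 0.979). Without male *Dek* cKO 2, the lowest library, it was 0.09.

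*Grm8* (chromosome 6, 27275119 to 28135178, minus strand) ranged from 3.06 to 5.26 TPM with a median of 4.06 TPM in WT and from 3.28 to 5.53 TPM with a median of 4.48 TPM in cKO. The highest 2 values were female *Dek* cKO 1 and 2, at 5.33 and 5.53 TPM, and the library labelled female *Dek* cKO 3 stood at 3.30 TPM. The log2 fold change over both sexes was 0.10 (95% interval -0.29 to 0.48, adjusted p = 0.971). It was -0.03 among CMV-named libraries. The intervals of *Grm4* and *Grm8* are wider than those of the other receptors, and a difference of the size measured in *Grm5* was not detectable within them. With 1 sign or the other, that size also lies inside the intervals of *Grm2* (-0.13 to 0.46), *Grm3* (-0.28 to 0.12) and *Grm7* (-0.17 to 0.17). It was therefore not excluded for those receptors.

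Between WT males and WT females the log2 differences ranged from -0.14 for *Grm4* to 0.26 for *Grm8*, and each interval held 0. *Grm5* was at 81.8 TPM ± 2.21 in females and 82.0 TPM ± 6.94 in males (SD, n = 3 each), a log2 difference with a 95% interval from -0.19 to 0.19. The WT sexes also differ in the beginnings of their library names, and the sex and the name cannot be told apart.

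Receptor levels were then compared with each other across libraries, over 15 pairs on the log2(TPM + 0.1) scale. No pair passed a permutation test with 100000 resamples after Benjamini-Hochberg adjustment. The highest r was that of *Grm2* with *Grm7*, at Pearson r = 0.54 (permutation p = 0.0681, adjusted p = 0.534) and Spearman rho = 0.608 (permutation p = 0.0392, adjusted p = 0.505) over 12 libraries, and r = 0.557 without the 2 libraries farthest in *Grm2*. *Grm2* with *Grm4* was alike at r = 0.538 (permutation p = 0.0748, adjusted p = 0.534), rho = 0.552 (permutation p = 0.0673, adjusted p = 0.505) and r = 0.662 without those 2 libraries. The order of these pairs depended on the scaling, since after median ratio rescaling r was 0.482 for *Grm2* with *Grm7* and 0.506 for *Grm2* with *Grm4*.

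Some pairs differed in sign within the genotypes. *Grm5* with *Grm7* had r = 0.80 within the 6 WT libraries and r = -0.73 within the 6 cKO libraries. *Grm2* with *Grm5* had r = 0.588 within WT and r = -0.895 within cKO. In male *Dek* cKO 3 *Grm5* was the lowest of all libraries and *Grm2* the highest. The difference between genotypes in these correlations was not tested.

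The genes whose levels followed each receptor most closely over the 12 libraries, among the 14034 genes averaging 1 TPM or more, are given as a description. For *Grm5* they were *Lmo3* (r = 0.948), a LIM domain protein, *Crym* (r = 0.940), a thyroid hormone-binding protein, and *Pcdh20* (r = 0.939), a protocadherin. *Crym* was at 246.7 to 318.6 TPM in WT and 172.7 to 276.1 TPM in cKO. *Pcdh20* was at 33.5 to 38.2 TPM in WT and 21.8 to 34.4 TPM in cKO. The same 3 libraries, female *Dek* cKO 1 and 2 and male *Dek* cKO 3, were lowest in *Grm5*, *Lmo3*, *Crym* and *Pcdh20*. These genes were picked for following *Grm5* over the same libraries. Neither their ranges nor the shared low libraries are therefore a result apart from *Grm5*.

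For *Grm7* the closest was *Dnajc7*, a co-chaperone (r = 0.952), followed by the RNA-binding protein genes *Rbm33* (r = 0.890) and *Rbm45* (r = 0.882). *Grm8* was closest to *Vill* (r = 0.956), *Cntn6*, which encodes a contactin of the neuronal surface (r = 0.919), and *Arpp21* (r = 0.891). *Grm4* was closest to *Entpd5* (r = 0.931), *Kcna2*, a voltage-gated potassium channel gene (r = 0.920), and *Gpr26* (r = 0.905).

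In group II the closest genes had lower correlations. *Grm3* was closest to *Mat2b* (r = 0.888), a regulatory subunit of methionine adenosyltransferase, *Xrcc3* (r = 0.879) and *Rad9a* (r = 0.854), which both serve DNA repair. *Grm2* was closest to *Dnd1* (r = 0.877), *Klhl32* (r = 0.854) and *Ndst1* (r = 0.850). The number of genes with r over 0.9 was 13 for *Grm5*, 4 for *Grm4*, 2 for *Grm8*, 1 for *Grm7* and 0 for *Grm2* and *Grm3*. All the closest genes were picked as the highest of 14034 over 12 libraries. No r was tested against that choice, and no shared function was tested.

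Genes that work with the receptors were examined as 4 lists. Among scaffolds and partners such as the Homer and Shank proteins, which tie mGlu5 to the postsynaptic density, 19 of 20 were listed and limma called 0, beside 0.148% of all tested genes, with 1 at an unadjusted p under 0.05, beside 6.64%. *Frmpd4*, whose product binds Homer and mGlu5, was at a median of 24.6 TPM in WT and 22.1 TPM in cKO. Its log2 fold change was -0.23 (SE 0.09, adjusted p = 0.676). The list's median log2 fold change was -0.03.

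The Gq arm comprises the G protein, phospholipase C and calcium signalling genes downstream of mGlu5. Limma called 0 of its 20 genes over both sexes, beside 0.148% of all tested genes, and 2 had an unadjusted p under 0.05, beside 6.64%. Among those 2, and named after its values were seen, was the calcium-permeable channel gene *Trpc5*, with means of 9.598 TPM ± 0.821 in WT and 8.28 TPM ± 0.809 in cKO (SD, n = 6 each). Its log2 fold change was -0.21 (SE 0.08, 95% interval -0.39 to -0.03, adjusted p = 0.669).

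The Gi/o arm holds the G protein subunits, adenylyl cyclases and potassium channels used by groups II and III. Of 24 genes 23 were tested, limma called 0 over both sexes, beside 0.148% of all tested genes, and 0 had an unadjusted p under 0.05, beside 6.64%. Within a sex it also called 0 of the 23, beside 0.0165% of tested genes in each sex. There 2 had an unadjusted p under 0.05 in females, beside 5.79% of tested genes, 3 did in males, beside 5.45%, and 3 did for the male minus female difference, beside 4.23%. The smallest p was that of *Gng4*, a G protein gamma subunit, with a log2 fold change of 0.22 (SE 0.11, adjusted p = 0.762). *Gng4* was at a median of 16.7 TPM in WT and 18.9 TPM in cKO.

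Of 17 genes for glutamate and N-acetylaspartylglutamate supply and clearance, which set how much agonist reaches these receptors, limma called 0, beside 0.148% of all tested genes, and 1 had an unadjusted p under 0.05, beside 6.64%. It was *Slc1a2*, the main astrocytic glutamate transporter, at 521.2 to 561.8 TPM in WT and 451.9 to 541.4 TPM in cKO. Its log2 fold change was -0.14 (SE 0.05, adjusted p = 0.539). Within a sex limma called 0 genes of this list, of the scaffolds and of the Gq arm, beside 0.0165% of tested genes in each sex. The numbers with an unadjusted p under 0.05 were 0, 0 and 2 in females, beside 5.79% of tested genes. In males they were 1, 2 and 1, beside 5.45%. List medians lay between -0.05 and -0.02 over both sexes, beside 0.02 over all tested genes.

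Each receptor's difference was recomputed with other offsets, filters, scalings and library sets. *Grm5* kept a log2 fold change between -0.21 and -0.14 over both sexes in 23 alternatives, and its unadjusted p was under 0.05 in 22 of them. In females it stayed between -0.24 and -0.14 in 21 alternatives, with an unadjusted p under 0.05 in 14 of them, and in males between -0.20 and -0.05, with 0 of 21. *Grm3* in males stayed between -0.33 and -0.22 in 21 alternatives, and the male minus female difference between -0.49 and -0.32, each with an unadjusted p under 0.05 in all 21. Some of these alternatives could not move the log2 fold change. The filters, the untrended prior, the replicate block and sex as a covariate leave it as it is and alter only p. Within a sex, so does leaving out a library of the other sex. No alternative brought a receptor to an adjusted p under 0.05, and the lowest for *Grm5* and for *Grm3* in males were 0.365 and 0.421.

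**Figure D4:**
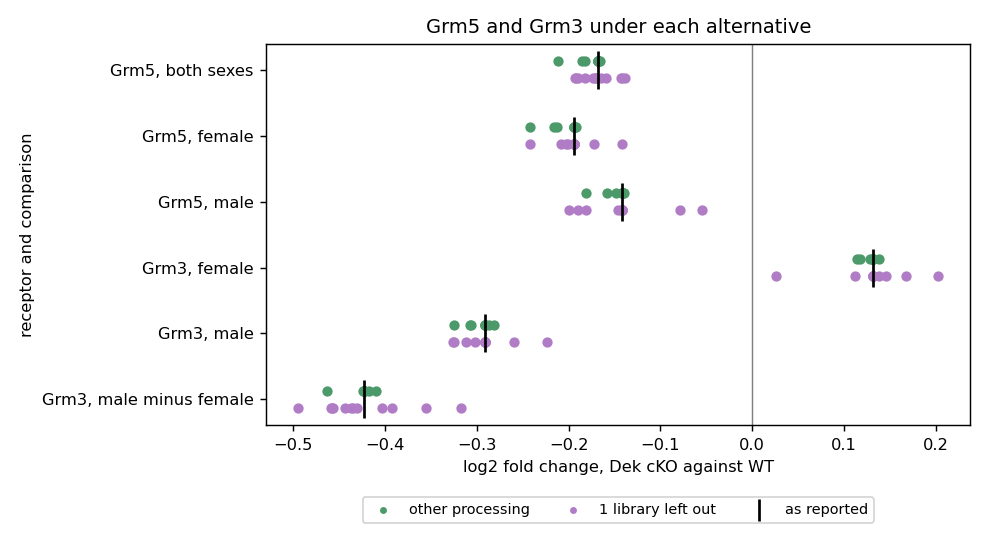
Log2 fold change of *Grm5* and *Grm3* as reported (black line), under other processing (green) and with 1 library left out (purple). *Grm5* over both sexes stays between -0.21 and -0.14, *Grm3* in males below 0 throughout and *Grm3* in females above 0 throughout.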

How the data were processed

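The 12 hippocampal RNA libraries were grouped by their sample labels. The authors deposited TPM, 1 column per library. The labels name kallisto and mm10, while the paper's methods name STAR and Salmon on GRCm38, and which made the table is not stated. TPM as deposited holds no read counts, so depth and counting error are unknown, and the listed genes sum to 825750 to 845553 TPM per library. Members, gene lists and tests were chosen with earlier results of these data known. Values were analysed as log2(TPM + 0.1) for genes averaging 0.1 TPM or more, with limma 3.58.1 (R 4.3.3), a trended prior variance and two-sided tests. Both sexes were compared as 6 against 6 libraries, and the other comparisons came from a fit of 4 groups of 3. Benjamini-Hochberg adjustment ran over 18197 genes. On simulated data 90% of 200 changed genes (2-fold) were recovered with 7 false calls. The changed genes were drawn from those with a positive mean of log2(TPM + 0.1). Smaller changes, such as those of the receptors, were not simulated. Coding sequences (the longest per gene) were aligned with mafft 7.526. Named genes besides the receptors and *Dek* are, for each receptor, the 3 genes of highest Pearson r and, for each list, the gene of smallest p. One list gene and one sequence are not reported here. The labels do not say whether replicates share a litter or batch, and p-values measure the spread between these libraries. Alternatives used 0.5 or 1 TPM, no filter or at least 1 TPM, median ratio or quantile scaling, an untrended prior, sex as a covariate, a replicate block, CMV-named libraries and libraries left out.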

Additional observations from a re-analysis of the deposited data

Results flagged for a closer look

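In WT, *Grm3* in the library female WT 3 (24.5 TPM) stood apart from the other 5 libraries, which ranged from 29.0 to 31.3 TPM. The gap to the nearest library was 0.691 of the group's range. The same library had the lowest *Grm2* (10.6 TPM). Chance flags about 1 in 20 groups, and 12 groups were examined. Without it the female log2 fold change of *Grm3* was 0.03.

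The genotype effect on *Grm3* differed between the sexes by -0.42 on the log2 scale (male minus female, adjusted p = 0.966 in limma over all genes). By the labelled sex *Grm3* was lower in cKO in males and higher in females, and the difference was not called after adjustment.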

How the results depend on the processing

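Across 642 alternative values of the 6 receptors in 5 comparisons, none passed the test. In 37 the sign changed, each for a difference that was not called, and the cause was not tested. Many of the 642 could not change sign, as their settings alter only p. For *Grm7* over both sexes and in females, leaving out both libraries of conflicting sex gave 0.056 and 0.058, and for the male minus female difference -0.0049. In males *Grm7* was -0.014 after median ratio rescaling and -0.0061 after quantile normalization. *Grm8* over both sexes was -0.033 among CMV-named libraries, and the WT sexes differed in *Grm5* by -0.0057 after quantile normalization.

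With each library left out in turn, signs also changed in these ranges of log2 values. Over both sexes they were -0.22 to 0.088 for *Grm4* and -0.049 to 0.041 for *Grm7*. In females they were -0.070 to 0.34 for *Grm4* and -0.11 to 0.10 for *Grm7*. In males they were -0.15 to 0.18 for *Grm2*, -0.55 to 0.012 for *Grm4*, -0.081 to 0.089 for *Grm7* and -0.28 to 0.018 for *Grm8*. The male minus female difference ranged from -0.0055 to 0.14 for *Grm5* and from -0.10 to 0.11 for *Grm7*. Between WT sexes the ranges were -0.052 to 0.33 for *Grm2*, -0.034 to 0.14 for *Grm3*, -0.062 to 0.059 for *Grm5* and -0.033 to 0.18 for *Grm7*.

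A replicate block cannot move a balanced difference, so *Grm5* over both sexes stayed at -0.17, with adjusted p = 0.673 in limma. No receptor was called, and 3 genes in all were called instead of 27. Replicate numbers marked no known pairing, since the correlation of same-numbered libraries' deviations ranged from -0.073 to 0.061, and 1 of 6 pairs correlated best with its own number. Genes called over both sexes ranged from 3 to 36 across 23 alternatives, with 17 under no filter, 12 without both libraries of conflicting sex and 10 among CMV-named libraries. Across 21 alternatives each, they ranged from 1 to 8 in females, 1 to 7 in males, 0 to 3 for the male minus female difference and 0 to 5 between WT sexes. The table holds no read counts, so the counting error of *Grm4* and *Grm8*, the lowest receptors, is unknown.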
